A study of Mus musculus with 6 samples.

Results

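Wnt signalling genes were followed in the prostates of mice given sex hormones. They are the genes of the deposited table whose symbols name a Wnt ligand, a Frizzled receptor, a secreted inhibitor (the Sfrp and Dkk families, Frzb and Wif1), an R-spondin, an R-spondin receptor (Lgr4, Lgr5, Lgr6), or Axin2, Lef1 or Tcf7. This rule used names alone and found 49 of the 34745 genes. The gene group itself was chosen with earlier results of these data known. The samples were prostate tissue of 6 male C57BL/6 mice, aged 6 to 8 weeks at the start. Which lobes were taken is not given in the sources used here. In the T + E2 group, 3 mice carried a slow-release pellet under the skin for 12 weeks, in which testosterone exceeded estradiol 10 to 1 by weight and which was renewed monthly. In the CON group, 3 mice had the skin cut and closed at the same times, with no pellet. No strain, allele or agent other than the pellet is said to differ between the groups, and each library came from a different mouse that was kept for sequencing.

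Wnt proteins are lipid-modified secreted ligands. They bind Frizzled receptors, and together with the coreceptors Lrp5 or Lrp6 they stop a cytoplasmic complex built on Axin and Apc from degrading beta-catenin, which then acts in the nucleus with DNA-binding proteins of the Tcf/Lef family. Other Wnt signals run through Frizzled receptors without beta-catenin, among them planar cell polarity. Secreted inhibitors keep ligands from their receptors or block the coreceptors, and R-spondins, bound by Lgr receptors, keep Frizzled receptors from being removed from the cell surface. In the prostate, Wnt signalling is known from the budding of the gland in the embryo and from exchange between stroma and epithelium in the adult.

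Reads counted on genes totalled 14819273 to 16026544 per CON mouse and 14816146 to 16555549 per T + E2 mouse. The listed genes took 11051 to 12441 of these reads in each mouse. Values are given in 2 units, CPM, the read count relative to library size with scaling by the trimmed mean of M-values, which was used to compare a gene between groups, and FPKM, which also divides by gene length and was used to compare genes with each other. At this depth 3 counts are worth 0.181 to 0.202 CPM. The labelled tissue showed its luminal markers in every mouse, with a summed FPKM over 7 genes of 21446 to 27272 in the CON group and 13187 to 14534 in the T + E2 group. CON replicate 2 stood apart in seminal vesicle secretion genes, whose summed FPKM over 7 genes was 12081 in that mouse, 308 in T + E2 replicate 2 and 0.539 to 3.26 in the other 4 mice. Results are therefore also given without CON replicate 2, beside those that it alters.

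Of the 49 members, 36 had enough counts to be tested and 13 did not, 7 of which had at most 3 counts in every mouse. A gene was said to have passed at an adjusted p under 0.05 in edgeR's quasi-likelihood test, adjusted over all 15580 tested genes, and was called a DEG where its log2 fold change also exceeded 1 in size. In the T + E2 group 6 tested members rose (16.7%), against 10.4% of all tested genes, and 13 fell (36.1%), against 9.25% of all tested genes. Of the 36 tested members 4 were upregulated DEGs, against a background of 4.27%, and 9 were downregulated DEGs, against a background of 3.38%. The values of the CON and T + E2 mice did not overlap in 6 of the 36 members that were higher (16.7%), below the 20% of all tested genes. They also did not overlap in 17 of the 36 that were lower, where 20.7% of all tested genes were so. The median log2 fold change of the 36 members was -0.37, beside -0.002 for all tested genes. The remaining 17 tested members did not pass, with adjusted p between 0.058 and 0.948.

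**Figure D1:**
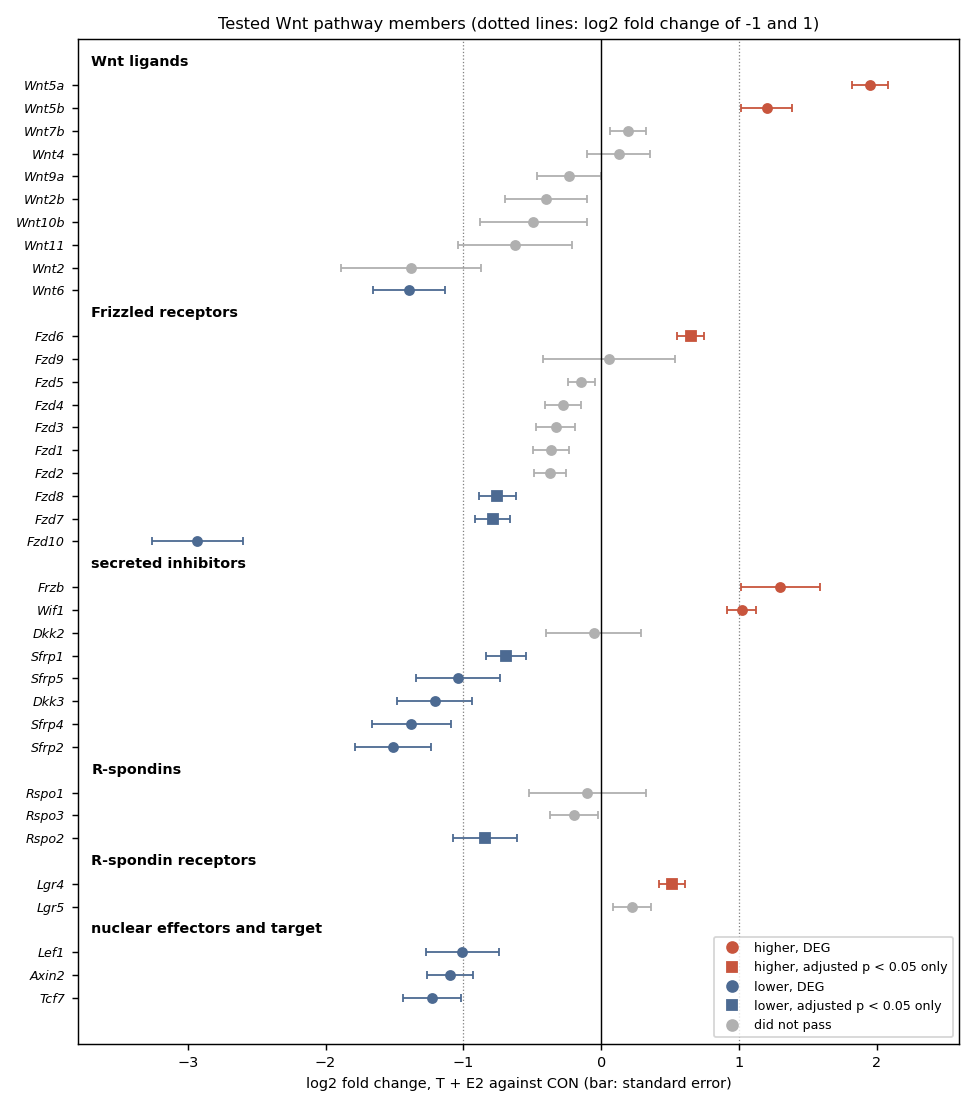
Log2 fold change of the 36 tested members (T + E2 against CON; bars, standard error; 3 mice per group), sorted within each role. Wnt5a lies farthest to the right at 1.95 and Fzd10 farthest to the left at -2.93, and Axin2, Tcf7 and Lef1 all lie near -1.

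Among the secreted ligands Wnt5a and Wnt5b, which are best known for signalling without beta-catenin, rose, Wnt6 fell, and the ligands with the highest level, Wnt4 and Wnt7b, did not pass. Of 19 ligands 10 were tested, of which 2 were higher (20%) and 1 was lower (10%). Over all tested genes these shares were 10.4% and 9.25%, so the share of lower ligands was near that of all genes.

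Wnt5a (chr14:28504750-28527447) measured 16.8, 14.6 and 18.4 CPM in the CON mice and 73.1, 62.5 and 57.4 CPM in the T + E2 mice. The lowest T + E2 mouse lay well above the highest CON mouse. The group means were 16.6 ± 1.92 and 64.3 ± 8.03 CPM (SD, n = 3 each), a 3.87-fold difference with a log2 fold change of 1.95 (SE 0.13, adjusted p = 6.58e-05). Wnt5a passed in every alternative tried, at log2 fold changes of 1.37 to 2.04. An antisense gene that overlaps it, Gm2670, had 1, 0 and 0 counts in the CON mice and 16, 15 and 10 counts in the T + E2 mice, beside 860 to 1057 counts of Wnt5a in the latter. Whether counting used the strand is not given in the sources used here, so reads of the 2 genes cannot be told apart.

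Wnt5b (chr6:119432531-119544347), the closest relative of Wnt5a, measured 5.50, 3.94 and 4.53 CPM in the CON mice and 12.0, 9.50 and 10.7 CPM in the T + E2 mice. The groups were clearly separate, at means of 4.66 ± 0.785 and 10.7 ± 1.23 CPM (SD, n = 3), with a log2 fold change of 1.20 (SE 0.18, adjusted p = 0.00329). Fbxl14, a protein-coding gene that overlaps Wnt5b on the opposite strand, held 557 to 596 counts per CON mouse and 481 to 581 per T + E2 mouse. Wnt6 (chr1:74771892-74785322), an epithelial ligand, measured 4.24, 3.75 and 2.96 CPM in the CON mice and 1.45, 1.10 and 1.60 CPM in the T + E2 mice. All T + E2 mice were below all CON mice, and the mean fell from 3.65 ± 0.647 to 1.38 ± 0.26 CPM (SD, n = 3; log2 fold change -1.40, SE 0.26, adjusted p = 0.00873).

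Wnt4, a ligand with roles in the development of the genital ducts and glands, had the highest FPKM of the ligands in both groups. Its values were 26.6, 33.1 and 29.6 CPM in the CON mice and 27.5, 24.3 and 45.8 CPM in the T + E2 mice. The groups overlapped, 1 T + E2 mouse was high, and the difference did not pass (log2 fold change 0.13, SE 0.23, adjusted p = 0.732). Wnt7b came next in FPKM and did not pass either, with a log2 fold change of 0.19 (adjusted p = 0.333); an overlapping antisense gene, AU022754, held 735 to 877 counts per CON mouse and 450 to 761 per T + E2 mouse. The lower value of Wnt2 (log2 fold change -1.38, SE 0.51) did not pass at an adjusted p of 0.0955, although its groups did not overlap. Wnt9a, Wnt2b, Wnt10b and Wnt11 did not pass and had overlapping groups, with log2 fold changes of -0.63 to -0.23.

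Per length, the ligands together summed to 18.6 to 21.2 FPKM in the CON mice and 20.1 to 27.3 FPKM in the T + E2 mice, ranges that overlapped. Within that sum the share of Wnt5a was 5.62 to 7.76% in CON mice and 16.9 to 25.4% in T + E2 mice, without overlap. The share of Wnt5b was 3.38 to 5.33% and 7.01 to 9.25%, and that of Wnt6 was 5.22 to 7.75% and 1.81 to 2.12%. Wnt4 made up 34.6 to 38.1% of the ligand FPKM in CON mice and 28.5 to 40.4% in T + E2 mice. In the order of mean FPKM, Wnt4, Wnt7b and Wnt5a held the first 3 places in both groups, while Wnt5b moved from place 8 to place 4 and Wnt6 from place 4 to place 8. These shares are a description without a test.

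**Figure D2:**
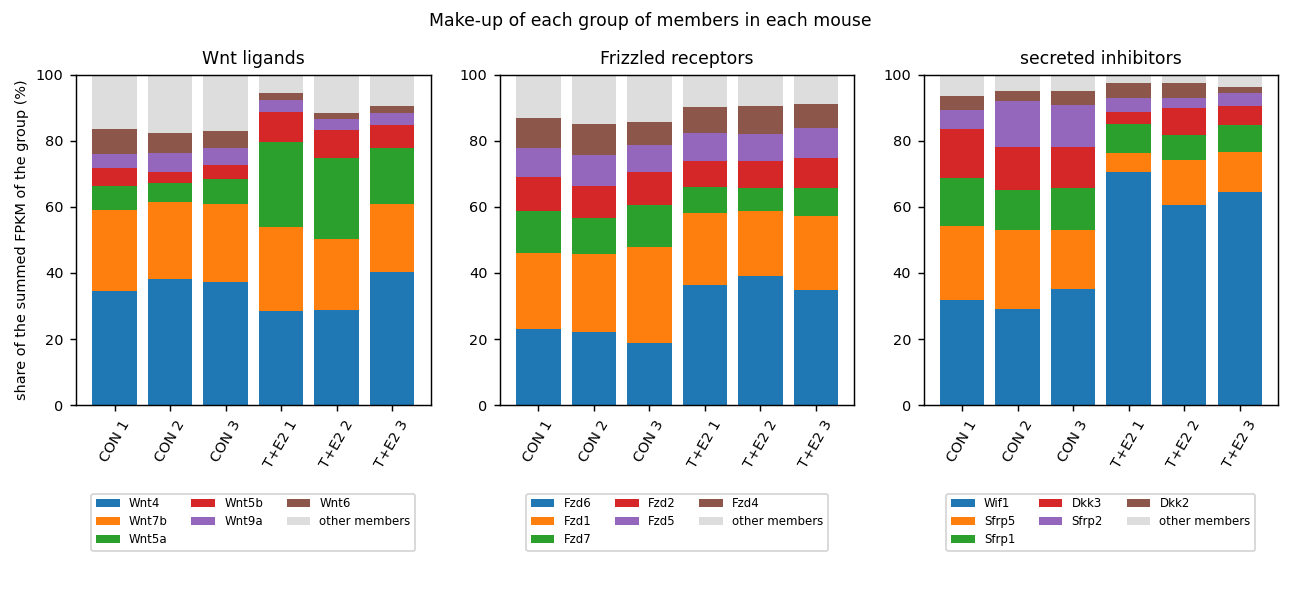
Share (%) of each gene in the summed FPKM of its role in each of the 6 mice, for ligands, Frizzled receptors and secreted inhibitors; grey, the remaining members of the role. The Wnt5a band is 16.9 to 25.4% and the Wif1 band 60.7 to 70.4% in the T + E2 mice, above the CON mice in each case.

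All 10 Frizzled receptors were tested. Fzd6 rose (10%, against 10.4% of all tested genes), while Fzd7, Fzd8 and Fzd10 fell (30%, against 9.25%). The other 6 did not pass. Fzd6, a receptor with a known role in the planar polarity of hair follicles, measured 63.2, 59.7 and 52.2 CPM in the CON mice and 90.9, 93.3 and 90.6 CPM in the T + E2 mice. The T + E2 mice were nearly alike and all above the CON mice (means 58.4 ± 5.59 and 91.6 ± 1.52 CPM, SD, n = 3; log2 fold change 0.65, SE 0.10, adjusted p = 0.00312). Fzd6 was second to Fzd1 by mean FPKM in the CON group and first in the T + E2 group, where Fzd1 came next.

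Fzd10 (chr5:128600844-128604093) showed the largest fold difference among the tested members. It measured 3.71, 3.48 and 4.40 CPM in the CON mice and 0.277, 0.548 and 0.667 CPM in the T + E2 mice, which were 53 to 70 counts and 4 to 10 counts. Its mean of 0.497 ± 0.2 CPM after T + E2 was 7.63-fold lower than the 3.86 ± 0.478 CPM of the CON mice (SD, n = 3; log2 fold change -2.93, SE 0.33, adjusted p = 0.000858). Fzd7, a receptor known from stem and progenitor cells of several epithelia, fell from 35.7 ± 3.48 to 20.7 ± 2.83 CPM (log2 fold change -0.79, SE 0.13, adjusted p = 0.00466). Fzd8 fell from 15.9 ± 0.928 to 9.46 ± 1.03 CPM (log2 fold change -0.75, adjusted p = 0.00622). Fzd1, Fzd2, Fzd3, Fzd4 and Fzd5 had log2 fold changes of -0.37 to -0.15 and did not pass, and the values of Fzd1, Fzd2 and Fzd3 did not overlap between the groups. Fzd9 was at a log2 fold change of 0.06 (adjusted p = 0.948).

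Summed over the receptors, the level was 64.9 to 66.1 FPKM in the CON mice and 56.2 to 62.4 FPKM in the T + E2 mice. Fzd6 made up 18.7 to 23% of it in CON mice and 34.7 to 38.9% in T + E2 mice, and Fzd7 11.1 to 12.9% and 6.93 to 8.38%.

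Secreted inhibitors moved in both directions. Wif1 and Frzb rose, while Sfrp1, Sfrp2, Sfrp4, Sfrp5 and Dkk3 fell, so that 7 of 8 tested inhibitors passed. The shares were 25% higher and 62.5% lower, against 10.4% and 9.25% of all tested genes. Wif1 (chr10:121033960-121100650), which binds Wnt ligands directly, had the highest FPKM of the inhibitors in both groups. It measured 95.2, 77.7 and 87.2 CPM in the CON mice and 187, 164 and 175 CPM in the T + E2 mice. Every T + E2 mouse lay far above every CON mouse, at means of 86.7 ± 8.76 and 176 ± 11.3 CPM (SD, n = 3) and a log2 fold change of 1.02 (SE 0.11, adjusted p = 0.000561). Wif1 passed in every alternative, but its log2 fold change, 0.94 to 1.09, was under the DEG limit of 1 in 5 of the 14, one of them without CON replicate 2.

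Frzb (chr2:80411970-80447625), a secreted protein with a Frizzled-like domain, was low. Its values were 0.927, 0.789 and 0.754 CPM in the CON mice and 2.14, 1.58 and 2.40 CPM in the T + E2 mice, which rest on 12 to 14 and 26 to 36 counts. The groups did not overlap (means 0.823 ± 0.0914 and 2.04 ± 0.419 CPM, SD, n = 3; log2 fold change 1.30, SE 0.29, adjusted p = 0.0174). The call was lost in 5 of 13 alternatives, among them without CON replicate 2 (adjusted p = 0.0622).

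Sfrp1, Sfrp2, Sfrp4 and Sfrp5 encode proteins with the same kind of Frizzled-like domain as Frzb, and their transcripts moved the other way. Sfrp2 (chr3:83766321-83774316) measured 10.2, 21.7 and 18.4 CPM in the CON mice and 6.36, 4.87 and 6.41 CPM in the T + E2 mice. The CON mice were widely spread but all above the T + E2 mice (means 16.8 ± 5.92 and 5.88 ± 0.875 CPM, SD, n = 3; log2 fold change -1.51, SE 0.28, adjusted p = 0.0077). Sfrp4 (chr13:19623175-19632821) measured 5.70, 4.14 and 4.02 CPM in the CON mice and 1.52, 1.40 and 2.40 CPM in the T + E2 mice. These groups were separate too (log2 fold change -1.38, SE 0.28, adjusted p = 0.0129). Sfrp1, which had a higher level, fell from 32.7 ± 6.27 to 20.3 ± 1.58 CPM (SD, n = 3; log2 fold change -0.69, SE 0.15, adjusted p = 0.0147). Without T + E2 replicate 2 the adjusted p was 0.0516 for Sfrp4 and 0.0586 for Sfrp1.

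Sfrp5 (chr19:42197971-42202252) measured 26.3, 25.1 and 17.5 CPM in the CON mice and 6.02, 14.4 and 13.0 CPM in the T + E2 mice. The highest T + E2 mouse came close to the lowest CON mouse, and the fall was just inside the threshold (log2 fold change -1.04, SE 0.30, adjusted p = 0.0481). It passed in 5 of 14 alternatives and not without CON replicate 2 (adjusted p = 0.110). Dkk3 (chr7:112116019-112159057), a Dickkopf family member whose action on Wnt signalling is less clear than that of its relatives, measured 30.7, 24.5 and 21.4 CPM in the CON mice and 6.71, 15.3 and 11.0 CPM in the T + E2 mice. Both groups were spread and did not overlap (log2 fold change -1.21, SE 0.27, adjusted p = 0.0191). The adjusted p of Dkk3 was above 0.05 without CON replicate 1 and without T + E2 replicate 3, where it reached at most 0.0553. Dkk2 had overlapping groups and a log2 fold change of -0.05 (adjusted p = 0.929).

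The summed FPKM of the inhibitors overlapped between the groups, at 51.3 to 63.4 for the CON mice against 52.8 to 57.2 for T + E2 mice. Wif1 alone made up 29.1 to 35.1% of it in CON mice and 60.7 to 70.4% in T + E2 mice. Sfrp1, Sfrp2, Sfrp4 and Sfrp5 together made up 47.8 to 54% in CON mice and 20.4 to 26.7% in T + E2 mice.

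**Figure D3:**
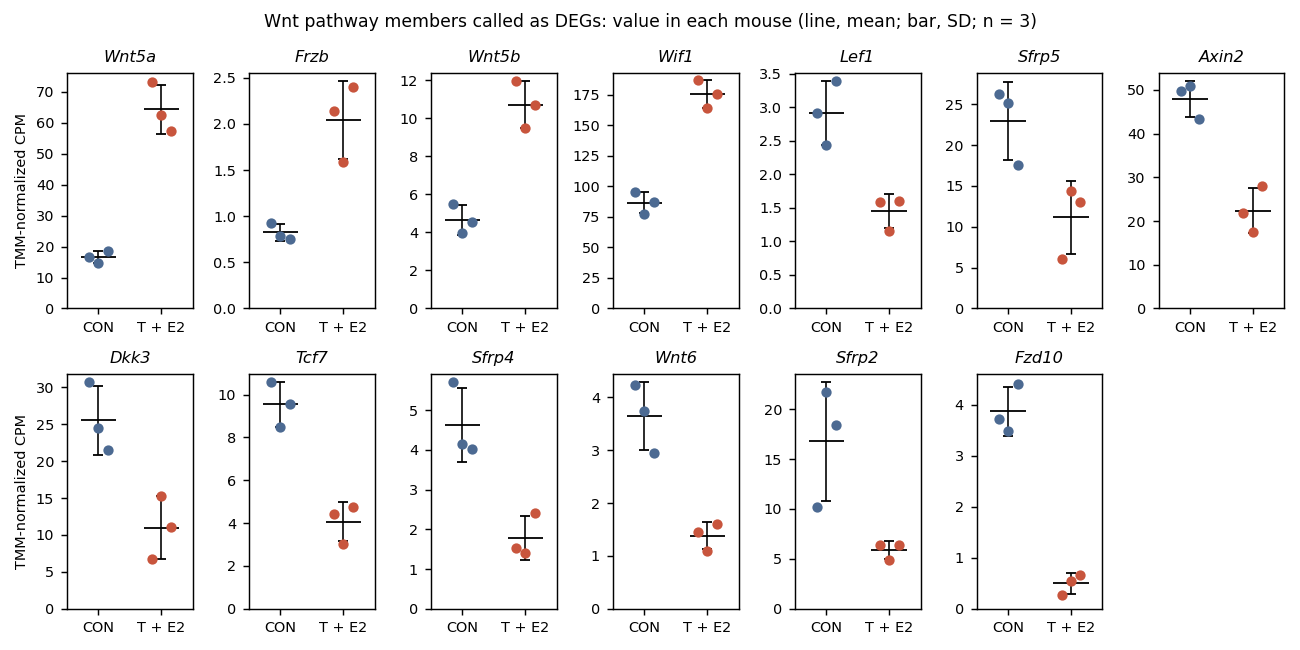
Normalized CPM of the 13 members called DEGs in each mouse, with every axis starting at 0; line, mean; bar, SD; n = 3 per group. Wnt5a, Frzb, Wnt5b and Wif1 are higher in all T + E2 mice, the other 9 are lower in all of them, and Sfrp5 comes closest to an overlap with 14.4 CPM in a T + E2 mouse and 17.5 CPM in a CON mouse.

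Of the R-spondins and their receptors, Lgr4 rose and Rspo2 fell. They were 1 of 2 tested receptors (50%, against 10.4% of all tested genes) and 1 of 3 tested R-spondins (33.3%, against 9.25%). Shares of so few genes say little about a role. Lgr4 had the highest FPKM of the R-spondin receptors and measured 61.4, 51.1 and 57.3 CPM in the CON mice and 79.2, 78.7 and 84.6 CPM in the T + E2 mice. All T + E2 mice were higher (means 56.6 ± 5.17 and 80.8 ± 3.29 CPM, SD, n = 3; log2 fold change 0.51, SE 0.10, adjusted p = 0.00906). Lgr5, known as a marker of stem cells in the intestine, had overlapping groups and did not pass (log2 fold change 0.22, adjusted p = 0.289). Among the ligands of these receptors, Rspo3 had the highest FPKM, with 14.0, 15.2 and 21.3 CPM in the CON mice and 16.0, 13.5 and 14.6 CPM in the T + E2 mice. Its groups overlapped and it did not pass (log2 fold change -0.20, SE 0.17, adjusted p = 0.454). Rspo2 fell from 3.79 ± 0.705 to 2.11 ± 0.191 CPM (SD, n = 3; log2 fold change -0.85, SE 0.23, adjusted p = 0.038), a call that held in 5 of 13 alternatives and not without CON replicate 2 (adjusted p = 0.0793). Rspo1 did not pass (log2 fold change -0.10, adjusted p = 0.892).

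The 3 members that act inside the cell all fell (100%, against 9.25% of all tested genes). Axin2 (chr11:108920349-108950783), a scaffold of the complex that degrades beta-catenin and itself a widely used transcriptional target of beta-catenin, measured 49.8, 50.8 and 43.3 CPM in the CON mice and 21.7, 17.5 and 27.9 CPM in the T + E2 mice. The highest T + E2 mouse was well below the lowest CON mouse (means 48.0 ± 4.1 and 22.4 ± 5.21 CPM, SD, n = 3; log2 fold change -1.10, SE 0.17, adjusted p = 0.00317). Tcf7 (chr11:52252371-52283014), a DNA-binding partner of beta-catenin, measured 10.6, 8.48 and 9.56 CPM in the CON mice and 4.43, 3.04 and 4.74 CPM in the T + E2 mice. Here too the groups were far apart (means 9.54 ± 1.06 and 4.07 ± 0.902 CPM, SD, n = 3; log2 fold change -1.23, SE 0.21, adjusted p = 0.00553).

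Lef1 (chr3:131110471-131224356), a second partner of this family, was lower in level, at 2.91, 2.43 and 3.40 CPM in the CON mice and 1.59, 1.16 and 1.60 CPM in the T + E2 mice. Its groups did not overlap (log2 fold change -1.01, SE 0.26, adjusted p = 0.032). The fall of Axin2 and Tcf7 passed in every alternative, although that of Axin2 was under the DEG limit without T + E2 replicate 2 (log2 fold change -0.95). With limma on log2(FPKM + 1) both were under that limit (-0.91 for Axin2 and -0.82 for Tcf7). The fall of Lef1 passed in 4 of 13, with adjusted p from 0.0277 to 0.108.

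Promoter sequence was examined for Axin2, Tcf7 and Lef1, the role in which every member fell, a choice made after the values were seen. The RefSeq promoter table (GRCm38.p6) held 41 promoters of 34 members, and the 250 bases before each start were searched on both strands. The search used CTTTGA, the core of the Tcf/Lef site, and AGAACA, the half-site of the androgen receptor and its relatives, of which Tcf7 held neither before its 2 starts. The sequences shown are those of Axin2 (chr11:108920099-108920348, plus strand) and of an internal start of Lef1 (chr3:131156044-131156293, plus strand), which held matches, with the matches on either strand in capitals.
Axin2: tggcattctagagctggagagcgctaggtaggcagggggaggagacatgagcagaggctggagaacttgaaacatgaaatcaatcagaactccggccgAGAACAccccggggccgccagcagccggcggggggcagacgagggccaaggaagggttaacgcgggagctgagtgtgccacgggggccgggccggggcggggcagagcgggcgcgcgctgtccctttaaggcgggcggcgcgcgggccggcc
Lef1, internal start: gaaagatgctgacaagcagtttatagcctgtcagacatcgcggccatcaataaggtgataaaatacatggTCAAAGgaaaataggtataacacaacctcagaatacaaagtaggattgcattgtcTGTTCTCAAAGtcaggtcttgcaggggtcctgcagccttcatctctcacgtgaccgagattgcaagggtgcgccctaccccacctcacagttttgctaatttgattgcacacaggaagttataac

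Axin2 held 1 half-site and no Tcf/Lef core. The Lef1 window held 2 Tcf/Lef cores, read as TCAAAG on the printed strand, and 1 half-site, read as TGTTCT, which overlaps the second core by 1 base. Of the other 3 starts of Lef1, 1 held a half-site and 2 held neither. Matches of this length are common, since CTTTGA occurred in 13.8% of all 32851 promoters and in 6 of the 41 member promoters (14.6%), and AGAACA in 16.1% of all promoters and in 6 of the 41 (14.6%). The oestrogen response element, GGTCA and TGACC with 3 bases between them, occurred in 0.0639% of all promoters and in none of the members'. A match of these letters is a description of the sequence and not a measured binding site.

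The other genes of the pathway were taken from 7 lists by role, which hold 76 genes of the table. These lists too were chosen with earlier results of these data known. Of the 76 genes, 73 were tested. In the T + E2 group 3 rose (4.11%), against 10.4% of all tested genes, and 17 fell (23.3%), against 9.25% of all tested genes. They held 1 upregulated and 6 downregulated DEGs, against backgrounds of 4.27% and 3.38%, and had a median log2 fold change of -0.22 beside -0.002 for all tested genes. Nkd1, Rnf43, Znrf3, Notum and Apcdd1 stand in more than 1 list.

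Of 13 tested genes commonly used as beta-catenin targets, 5 fell (38.5%, against 9.25% of all tested genes) and none rose (against 10.4%). Nkd1, an inhibitor of Dishevelled, measured 28.9, 31.4 and 34.3 CPM in the CON mice and 11.3, 8.10 and 7.94 CPM in the T + E2 mice (log2 fold change -1.79, SE 0.16, adjusted p = 0.000259). Sp5, a transcription factor, measured 70.5, 78.0 and 79.8 CPM in the CON mice and 23.0, 18.6 and 31.8 CPM in the T + E2 mice (log2 fold change -1.64, SE 0.18, adjusted p = 0.000804). In both genes every T + E2 mouse was far below every CON mouse. The adhesion molecule Cd44 fell with a log2 fold change of -1.09 (SE 0.11, adjusted p = 0.000584). The protease Mmp7 (-1.07) and the receptor Tnfrsf19 (-0.44) also fell, the latter in 8 of 14 alternatives. Ccnd1, Myc, Sox9, Notum, Rnf43, Znrf3 and Apcdd1 had log2 fold changes of -0.59 to -0.26 and did not pass, nor did Jag1 at 0.30.

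Of 11 tested planar cell polarity genes 5 fell (45.5%, against 9.25% of all tested genes) and none rose (against 10.4%). These were Prickle2 (log2 fold change -0.83), the formin Daam2 (-0.78), Prickle1 (-0.65), the membrane protein Vangl1 (-0.50) and the scaffold Scrib (-0.49), while Celsr3 was at -1.12 and did not pass. Daam2 and Prickle1 passed in every alternative, and the other 3 in 5 of 13 (Prickle2), 12 of 14 (Vangl1) and 9 of 14 (Scrib). Without CON replicate 2 the adjusted p was 0.0596 for Vangl1 and 0.0710 for Scrib, above the threshold. Among 11 nuclear genes none rose and 2 fell (18.2%, against 9.25% of all tested genes). The corepressor Tle1 fell from 115 ± 9.15 to 62.5 ± 7.41 CPM (log2 fold change -0.88, adjusted p = 0.00183) and the coactivator Bcl9 from 56.4 ± 3.66 to 35.9 ± 1.32 CPM (-0.65, adjusted p = 0.0021). Tcf7l1 and Tcf7l2, the other DNA-binding members of the family, had log2 fold changes of -0.11 and -0.08 and did not pass.

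The largest rise in the lists was that of Dkkl1, a secreted protein related to the Dickkopf family and known from the testis. It measured 4.37, 10.9 and 5.72 CPM in the CON mice and 79.8, 68.6 and 69.7 CPM in the T + E2 mice. The groups were widely apart (log2 fold change 3.38, SE 0.29, adjusted p = 0.000233). In the same list of 6 tested secreted or surface modulators 1 rose and 1 fell (16.7% each, against 10.4% and 9.25% of all tested genes). Sostdc1, which binds Lrp coreceptors and bone morphogenetic proteins, fell from 4.91 ± 1.38 to 1.33 ± 0.444 CPM (log2 fold change -1.87, SE 0.32, adjusted p = 0.00593).

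Of 19 cytoplasmic transducers 1 rose (5.26%) and 2 fell (10.5%), shares below and near the 10.4% and 9.25% of all tested genes. The falls were those of Nkd1 and of Apc2, a relative of Apc (log2 fold change -1.12, SE 0.23, adjusted p = 0.0135), and the rise was that of Btrc, a subunit of the ubiquitin ligase for beta-catenin (0.34, adjusted p = 0.0365). Beta-catenin itself (Ctnnb1) was at a log2 fold change of 0.18 and did not pass. Of 11 tested coreceptors and genes of receptor turnover 1 rose (9.09%) and 2 fell (18.2%), against 10.4% and 9.25% of all tested genes. Lrp5 rose (0.49, adjusted p = 0.0183), Tspan12, a partner of Fzd4, fell (-0.71, SE 0.09, adjusted p = 0.00188), and the receptor Ptk7 fell (-0.42, adjusted p = 0.0421). Btrc held in 4 of 14 alternatives, Ptk7 in 5 and Lrp5 in 10, and all 3 calls ended without CON replicate 2 (adjusted p of 0.129, 0.128 and 0.0675). Of 7 genes of ligand lipidation, secretion and removal none rose and 1 fell (14.3%, against 9.25% of all tested genes). It was the glypican Gpc3 (-0.72, SE 0.18, adjusted p = 0.0268, in 8 of 14 alternatives), while Porcn and Wls, needed for ligands to be lipidated and secreted, were at -0.22 and 0.03 and did not pass.

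**Figure D4:**
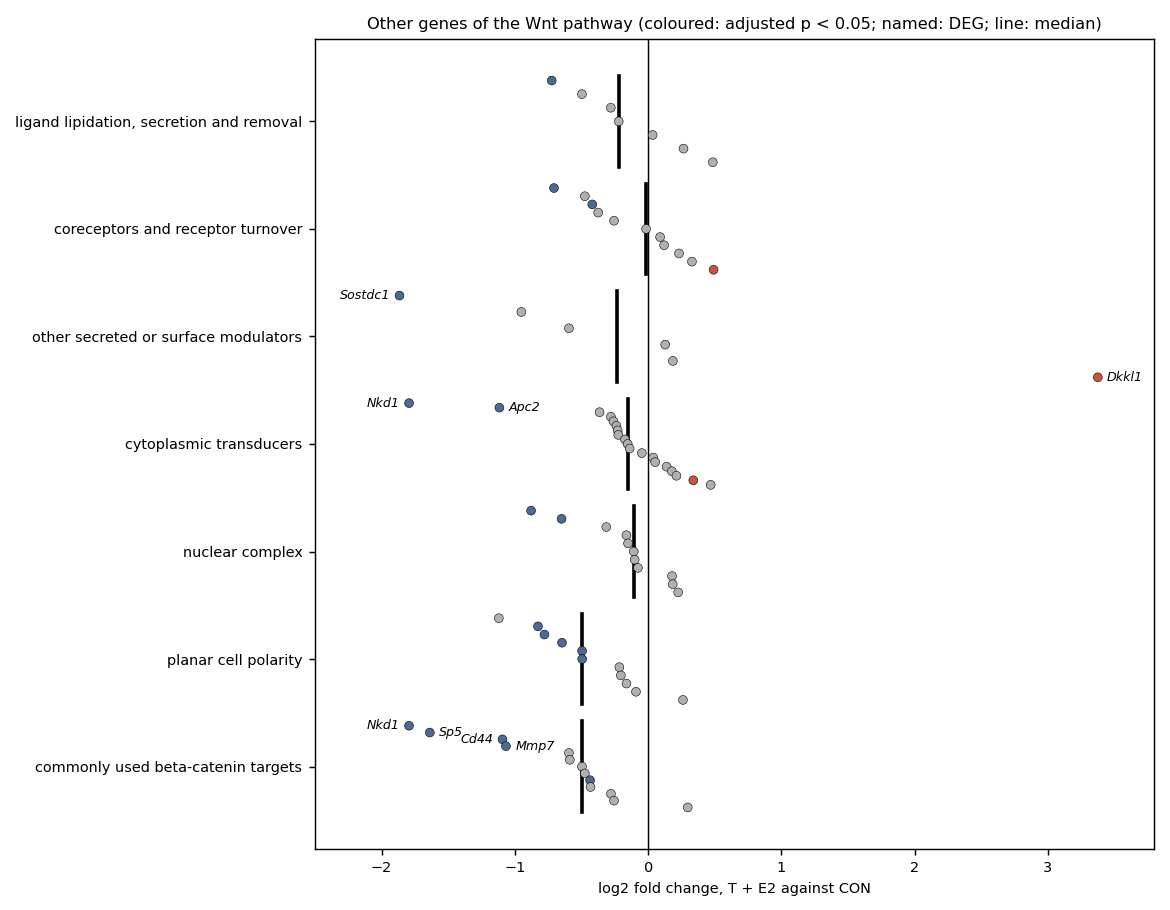
Log2 fold change (T + E2 against CON, 3 mice per group) of the tested genes of the 7 pathway lists, 1 point per gene; red, rose; blue, fell; grey, did not pass; line, list median. Dkkl1 stands alone at 3.38, and Nkd1 and Sp5 lie lowest among the beta-catenin targets at -1.79 and -1.64.

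Markers of cell types moved as well in these tissue samples, where fewer cells of a type and less RNA per cell cannot be told apart. Over all tested genes 10.4% rose and 9.25% fell. Of 7 luminal markers 3 fell (42.9%) and 1 rose (14.3%), with Pbsn at a log2 fold change of -3.29, Tgm4 at -2.91 and Msmb at 1.10. The summed FPKM of 4 basal markers was 65.2 to 110 for CON mice against 103 to 130 for T + E2 mice. Of the 4 markers 1 rose (25%). None of 7 fibroblast markers passed, at sums of 490 to 631 and 522 to 744 FPKM. Of 6 smooth muscle markers 2 fell (33.3%), at sums of 1606 to 1928 and 1370 to 1399 FPKM. Of 5 urothelial markers 3 were tested and all 3 rose (100%), with Upk1a at a log2 fold change of 1.80. The sums of the 5 were 299 to 475 FPKM in the CON mice and 1025 to 1190 FPKM in the T + E2 mice. Of 3 Schwann cell markers 1 fell (33.3%), at sums of 14.9 to 23.7 and 7.87 to 12.8 FPKM. None of the markers of immune cells (7), endothelium (4), skeletal muscle (5), fat (3 tested) or mesothelium (3) passed. CON replicate 2 had the highest fat sum, at 55.3 FPKM against 4.70 to 13.5 FPKM in the other mice. It also had the highest skeletal muscle sum, at 168 FPKM against 47.7 to 130 FPKM. Of 6 markers of epididymis and vas deferens 1, Adam7, was tested and rose, at sums of 0.03 to 0.618 and 1.22 to 2.33 FPKM, with 4 of the 6 at no more than 3 counts in every mouse. The part of these shifts in the results for the Wnt pathway was not tested.

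Without CON replicate 2, the library with seminal vesicle transcripts and the highest fat and skeletal muscle sums, 5 members rose and 11 fell. Calls were fewer over all genes too. In that fit 1202 of 15890 tested genes rose and 928 fell, against 1620 and 1441 of 15580. The 6 members with the largest changes among those past the threshold in the main fit were followed without this library. Their log2 fold changes were -3.00 (Fzd10), 1.87 (Wnt5a), -1.29 (Sfrp2), -1.38 (Wnt6), -1.45 (Sfrp4) and 1.27 (Frzb). Of these, 5 stayed past the threshold and Frzb did not. Of the other pathway genes 1 rose and 15 fell without this library. The biological coefficient of variation over all genes was 18%. Among the tested members the standard error was widest for Wnt2 (0.51), Fzd9 (0.48), Rspo1 (0.43) and Wnt11 (0.42), none of which passed.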

How the data were processed

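Paired-end libraries of total RNA from 6 prostates were analysed. The authors deposited 1 table with whole-number read counts per gene, not normalized, and FPKM, which the authors computed from the same counts, gene length and library total. The submitters' processing notes name TopHat, Bowtie2 and HTSeq. Versions, genome build, annotation and strand setting are not given in the sources used here. Coordinates are those of the deposited table, and 37 of the 49 members have the same start and end in GENCODE M21 (GRCm38). The members and gene lists were chosen with earlier results of these data known.

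Group and replicate came from the sample titles. Counts were tested with edgeR 4.0.16 in R 4.3.3 (filterByExpr with a minimum count of 10 and a minimum total of 15, TMM factors, quasi-likelihood F test, Benjamini-Hochberg over 15580 genes). Standard errors were obtained by dividing the log2 fold change by the square root of F. The FPKM were used for levels and shares only in the main results. An exact permutation test on 3 against 3 mice has a smallest p of 0.1 and was not used. The procedure was tested on simulated counts.

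Members given with the value in every mouse are the DEGs and, per role, the gene with the highest mean FPKM. Nkd1, Sp5 and Dkkl1, which are not members, were also given in every mouse, a choice made after their values were seen. In each pathway list up to 3 genes with the largest change among those past the threshold were named, and the others named there were added after their values were seen. The 14 alternatives were median-of-ratios factors, library totals, DESeq2 1.42.0, no filter, a filter at an FPKM of 1, limma 3.58.1 on log2(FPKM + 0.1) and on log2(FPKM + 1), each mouse left out, and a block for the replicate number. Genes that a filter removed have 13. BLAST+ 2.17.0+ found no pair of members similar over most of their length at 90% identity. Wnt4 (1713 genes, up to 188 bases) and Lef1 (109 genes, up to 175 bases) share short stretches with many other transcripts. Depth limits the precision of low genes, and limits from counts cover counting error only.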

Additional observations from a re-analysis of the deposited data

How the results depend on the processing

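Over the 14 alternatives 5 to 6 members rose and 8 to 13 fell, against 6 and 13. When single mice were left out, 8 (without T + E2 replicate 2) to 11 members fell, 2 to 4 were upregulated DEGs (2 without CON replicate 2 and without T + E2 replicate 1) and 5 (without T + E2 replicate 2) to 8 were downregulated DEGs. Of the other pathway genes 1 to 3 rose, with 1 in 4 of the 6 such fits. With limma on log2(FPKM + 0.1) 2 members were upregulated DEGs. With limma on log2(FPKM + 1) there were 1 upregulated and 2 downregulated DEGs, the median log2 fold change of the members was -0.19, and over all genes 365 were upregulated and 196 downregulated DEGs, against 665 and 526. Over all genes 1095 to 1474 rose and 834 to 1267 fell when single mice were left out. With the replicate block 1229 rose and 945 fell. The main fit had 1620 and 1441. The pseudocount of 1 shrinks the fold change of low genes by construction. For the other settings the cause was not tested. Direction was followed for the members and pathway genes that passed and for the member with the highest FPKM in each role. Among these it turned for 2 values that had not passed, Rspo3 (log2 fold change 0.0065 without CON replicate 3, -0.32 to 0.0065 over single mice left out) and Wnt4 (-0.20 without T + E2 replicate 3, -0.20 to 0.30). The other members that did not pass were not followed.

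The replicate numbers name different mice. With a replicate block 6 members rose and 10 fell. The deviations of mice with the same number correlated at -0.05, 0.03 and 0.05, and some mice correlated better with another number, at up to 0.14, so the numbers do not pair the mice. No scaling moved the median of all genes by more than 0.04 on the log2 scale.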

Other observations

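Of the members that could not be tested, Dkk1, an inhibitor that blocks the Lrp coreceptors, had 20, 9 and 3 counts in the CON mice and 1, 5 and 1 counts in the T + E2 mice, so the groups overlapped. The R-spondin receptor Lgr6 had 2, 5 and 0 counts in the CON mice and 6, 9 and 4 counts in the T + E2 mice. Wnt10a had 9 to 11 counts in the CON mice and 5 to 9 counts in the T + E2 mice. Wnt3a, Wnt9b and Wnt16 had at most 5 counts in any mouse. Wnt1, Wnt3, Wnt7a, Wnt8a, Wnt8b, Dkk4 and Rspo4 had at most 3 counts in every mouse, and differences in them were not detectable at this depth.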
